A study of Homo sapiens with 24 samples.

Results

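The mRNAs of 49 genes named after translation factors, outside the eIF4F complex, were followed in PANC-1 cells. This is an epithelial cell line from a human carcinoma of the pancreatic duct. Among the 49 are 3 enzymes that modify elongation factors (EEF2K, EEF1AKNMT and EEF2KMT), EEF1E1 of the multi-tRNA synthetase complex, and the gene copies EIF3CL, EIF5AL1 and EIF2S3B. The members are the genes of the count table whose symbols begin with EIF or EEF and a number from 1 to 6. Pseudogenes (152 of 229 matching rows), antisense and divergent non-coding genes (5), the eIF2 kinases and EEF1AKMT genes (9) and 8 genes of the cap-binding complex, its relatives and its repressors were left out. Of the 55 genes that remained, 6 had a count of 0 in at least 1 library, and the other 49 are among the 12058 genes without any 0 that were tested. The rule for members uses symbols and the absence of a count of 0, and it was set with earlier results of these data known.

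Each treatment lasted 6 h and was given in 4 replicates: DMSO, CID661578 at 40 µM, or cercosporamide at 5 µM. The sample labels call both compounds MNK2 inhibitors. MNK2 is a kinase that binds the initiation complex and phosphorylates the cap-binding protein eIF4E. The study reports that CID661578 left the kinase activity of MNK2 unchanged in vitro but largely prevented the binding of MNK2 to the scaffold protein eIF4G. By its report, cercosporamide inhibited the kinase in the same assay. In this cell line the study saw more phosphorylated eIF4E with both compounds, with cercosporamide at a higher dose than here. From each replicate of each treatment, total cytosolic RNA and RNA associated with more than 3 ribosomes (polysome-associated RNA) were sequenced, which gave 24 libraries. All groups share the cell line, the medium and the time, and DMSO is the only control.

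Translation of an mRNA begins when eIF2 delivers the initiator tRNA to the small ribosomal subunit, on which eIF1, eIF1A, eIF3 and eIF5 are assembled. eIF5 then makes eIF2 hydrolyse its GTP, eIF5B joins the large subunit, and eIF2B recharges eIF2 with GTP for the next round, the step that is blocked when stress kinases phosphorylate the alpha subunit of eIF2. During elongation eEF1A brings aminoacyl-tRNAs, eEF1B recharges eEF1A, and eEF2 moves the ribosome along the mRNA. Many of the mRNAs for elongation factors and some for eIF3 subunits begin with a cytosine and a run of pyrimidines, the 5′ terminal oligopyrimidine (TOP) tract, through which mTOR signalling controls their translation.

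The 5′ ends of 12 members are shown because the presence of such a tract separates members that otherwise share a function. Each line holds the 10 bases before the annotated RefSeq start on GRCh38 and the 20 bases from it on, 5′ to 3′, and capitals mark a pyrimidine run that begins with C at the annotated start and goes on for at least 4 more pyrimidines. The first 8 have the tract and the last 4 do not.
EEF1A1 (chr6:73521013-73521042, minus strand): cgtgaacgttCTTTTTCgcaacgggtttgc
EEF1B2 (chr2:206159885-206159914, plus strand): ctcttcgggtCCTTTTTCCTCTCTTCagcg
EEF2 (chr19:3985444-3985473, minus strand): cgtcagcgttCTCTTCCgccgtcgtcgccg
EIF4B (chr12:53006446-53006475, plus strand): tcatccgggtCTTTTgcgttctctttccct
EIF3F (chr11:7987327-7987356, plus strand): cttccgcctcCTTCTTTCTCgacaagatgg
EIF3K (chr19:38619178-38619207, plus strand): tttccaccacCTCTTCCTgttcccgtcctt
EIF2A (chr3:150546777-150546806, plus strand): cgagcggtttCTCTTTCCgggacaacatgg
EIF2S3 (chrX:24054946-24054975, plus strand): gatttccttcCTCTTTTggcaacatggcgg
EIF2S1 (chr14:67360318-67360347, plus strand): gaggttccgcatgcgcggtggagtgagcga
EIF5 (chr14:103334227-103334256, plus strand): ggcgttgttcagtcagagcgagaacattcc
EIF5A (chr17:7307618-7307647, plus strand): cggcgcctgcgtactaagacccgtgtgcag
EIF5B (chr2:99337379-99337408, plus strand): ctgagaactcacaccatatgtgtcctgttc

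Of the 49 members, 38 had such a window, and 12 of these 38 (31.6%) began with the tract, compared with 5.64% of the 8546 tested genes that had a window and 4.07% of all 35116 windows. The search read only the transcribed strand and only the annotated start. The tract was present in 3 of 5 eEF members with a window, in 4 of 8 eIF3 members and in 4 of 5 eIF2 members, but in 0 of 5 eIF2B, 0 of 5 eIF5 and 0 of 4 eIF1 members. The eIF2 members with the tract were EIF2S3, its copy EIF2S3B, and EIF2A and EIF2D, which are not subunits of eIF2. EIF2S1 had a window without the tract, and EIF2S2 had no window. Of the 10 members listed as known TOP mRNAs, 6 had a window and 5 of these began with the tract. In the sixth, EEF1G, the annotated start lies on another base. An annotated start may differ from the start used in these cells, so a missing match says only that these letters are not at this position.

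Depth was between 9268041 and 12184749 reads on genes in 23 libraries and 1592459 in the remaining one, polysome-associated RNA of cercosporamide replicate 4. Levels are given in CPM, the read count of a gene scaled to a common library size after TMM normalization. The levels of the cell type markers that follow were scaled to library size without TMM. Of 8 markers read for the line, the keratins KRT8, KRT18 and KRT19 had median levels of 6484, 3085 and 1904 CPM, and VIM had 1266 CPM. KRT7, EPCAM and SOX9 had medians of 14.1, 6.69 and 17.3 CPM. CDH1, the epithelial cadherin, had a count of 0 in 13 of 24 libraries. Of 16 markers of leukocytes, endothelium, fibroblasts, acinar and islet cells, 8 were at 0 in every library, and their summed level of 301 to 685 CPM came mostly from CD68 (median 455 CPM). In bulk RNA, fewer cells with an mRNA and less of it per cell cannot be told apart. The study's methods call the replicates biological, and the labels only number them. The p-values measure the spread between these replicates, moderated by that of all genes, and the replicates are not described further.

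The 49 members took 1.59 ± 0.114% of all counts in total RNA with DMSO (SD, n = 4) and 2.25 ± 0.270% in polysome-associated RNA. The 7 eEF members took 0.653 ± 0.0674% of total and 1.14 ± 0.173% of polysome-associated counts, and the 14 eIF3 members took 0.527 ± 0.0542% and 0.662 ± 0.0827%. The other families held far less, with 0.0408 ± 0.00415% of total counts for eIF2 and 0.0336 ± 0.00575% for eIF2B. Per kilobase of the Ensembl canonical transcript, the highest level in total RNA with DMSO was that of EIF3K (2470 CPM per kb), a small peripheral subunit of eIF3, followed by EIF6 (1550), which keeps the large ribosomal subunit apart from the small one, and EEF1A1 (1113). The lowest levels per kilobase were those of EIF2S3B (0.758), EIF4ENIF1 (0.770) and EEF2K (0.673), the kinase of eEF2. Subunits of 1 complex were not at 1 level: within eIF3, EIF3K was at 2470 CPM per kb, EIF3C at 112 and EIF3J at 12.6.

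Some members may share reads with other genes, since the counting kept reads with several alignments. The alignments were not examined, and only ratios of counts are given. EIF3CL had 0.892 to 1.06 times the counts of EIF3C, and the pair carries the same information here. EIF5AL1, a copy of EIF5A, had 0.192 to 0.337 times the counts of EIF5A. EIF2S3B, a copy of EIF2S3, had 0.0137 to 0.0733 times those of EIF2S3, and the pseudogene EEF1A1P5 had 0.563 to 0.626 times those of EEF1A1. The helicase gene EIF4A1 was at 0 in every library, whereas its pseudogene row EIF4A1P10 held 715 to 3400 counts, so EIF4A1 was not measured by this table. EIF1AY, EIF4E1B, EIF4E3, EIF4EBP3 (at most 12 counts) and the readthrough EEF1E1-BLOC1S5 (at most 4 counts) were the other 5 genes with a 0.

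The question of where these mRNAs stood in untreated cells was addressed by comparing polysome-associated with total RNA with DMSO, on the log2 scale. With edgeR's quasi-likelihood test over all genes, a change had to exceed 1.2-fold and have an adjusted p (Benjamini-Hochberg) below 0.15 to be called. By this rule 16 members were higher in polysome-associated RNA (32.7%, against 26.4% of all genes tested) and 14 were lower (28.6%, against 29.6%), and neither share was far from that of all genes. When TMM was computed within each fraction, the median of all genes rose to 0.26 and every member by 0.27 to 0.28, and the split became 26 higher and 7 lower, against 39.2% of all genes higher and 20.4% lower.

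EIF3B, the scaffold subunit of eIF3, had the highest value. It was at 109, 98.9, 150 and 121 CPM in total RNA and at 438, 292, 415 and 377 CPM in polysome-associated RNA of replicates 1 to 4 with DMSO, and the fractions did not overlap. The change was 1.67 ± 0.18 (SE, adjusted p = 9.27e-08 in edgeR's quasi-likelihood test). EIF2B5, the catalytic subunit of eIF2B (1.33 ± 0.19), EEF1AKNMT, a methyltransferase of eEF1A (1.05 ± 0.18), and EEF2 (0.96 ± 0.19) followed.

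EEF1E1, a component of the multi-tRNA synthetase complex, was at the other end. It was at 41.5, 94.6, 50.9 and 36.7 CPM in total RNA and at 17.4, 22.1, 15.3 and 12.5 CPM in polysome-associated RNA, again without overlap, a change of -1.66 ± 0.19 (adjusted p = 1.91e-07 in edgeR's quasi-likelihood test). EEF2KMT, a methyltransferase of eEF2, had a change of -1.54 ± 0.24, EIF5A2, a paralogue of EIF5A, one of -1.46 ± 0.23, and EIF1, which guards start codon choice, one of -0.99 ± 0.16. These 4 were among the 7 members that were lower under both scalings. By family, 4 of 7 eEF members were called higher and 1 lower, and 3 of 5 eIF2B members were called higher. Of the eIF1 members 3 of 4 were called lower, and of the eIF5 members 3 of 5 were lower and 1 higher. In eIF3, 4 of 14 members were higher and 3 lower, or 3 and 3 of 13 without the copy EIF3CL. Among all genes tested 26.4% were higher and 29.6% lower. With TMM within each fraction the lower calls were 2 of 4 for eIF1 and 1 of 5 for eIF5, since EIF1AX, EIF5A and its copy EIF5AL1 were no longer called. Subunits of 1 complex went in both directions within eIF2B, where EIF2B3, EIF2B4 and EIF2B5 were higher and EIF2B1 (-0.88 ± 0.17) and EIF2B2 (-0.44 ± 0.17) lower. EIF2B2 was no longer called with TMM within each fraction.

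**Figure D1:**
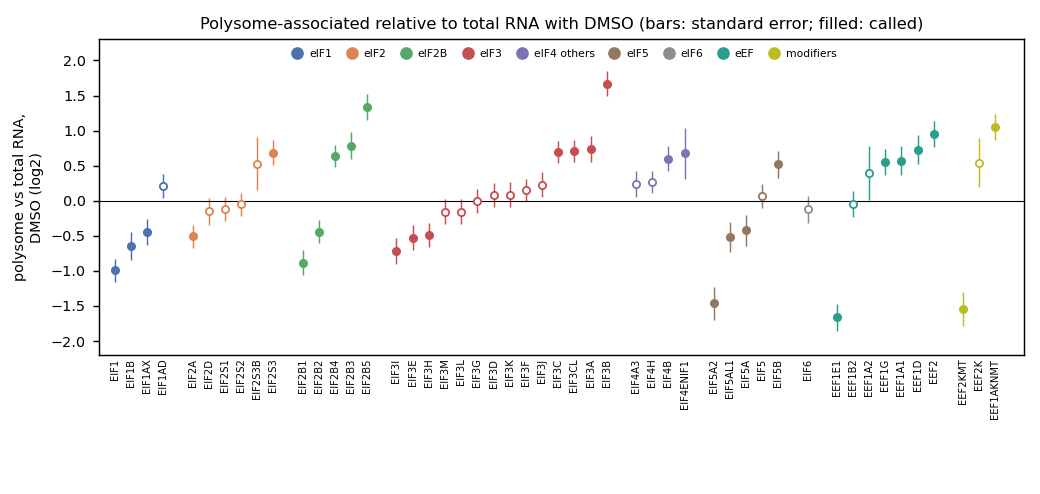
Polysome-associated relative to total RNA with DMSO (log2, vertical axis) for each of the 49 members, ordered within family. Points are fitted changes over 4 replicates, bars are standard errors and filled points were called at an adjusted p below 0.15. EIF3B at 1.67 is the highest point and EEF1E1 at -1.66 the lowest.

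Whether the compounds changed the amounts of these mRNAs was addressed in total RNA. With edgeR's quasi-likelihood test, 0 members were called with CID661578 (background 0.307% of genes higher and 0.166% lower) and 0 with cercosporamide (0.0498% and 0.0332%), and DESeq2 called 0 as well. At an unadjusted p below 0.05 there were 2 members with CID661578, both lower. There were 3 with cercosporamide, of which 2 were higher. At that threshold 3.45% of all genes were higher and 3.75% lower with CID661578, and 5.33% and 5.85% with cercosporamide. The fitted changes ran from -0.54 (EEF1AKNMT) to 0.38 (EIF2S2) with CID661578 and from -0.90 (EIF2S3B) to 0.45 (EIF3E) with cercosporamide.

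The main comparison was of translation efficiency (TE). The TE change is the log2 ratio of polysome-associated to total RNA with a compound minus that ratio with DMSO, taken from an interaction term of a single model over 24 libraries. Both comparisons use one set of DMSO libraries, and the compounds were used at different doses.

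With cercosporamide, the TE of 10 members rose and that of 5 fell. These are 20.4% and 10.2% of the members, against 15.8% of all genes tested called higher and 12.6% lower, and the median over members was 0.10, against 0.00 over all genes. The mRNAs with higher TE were 5 of the 6 eIF2 members (EIF2A, EIF2S1, EIF2S2, EIF2S3 and EIF2S3B), EIF3A and EIF3E of eIF3, EIF4B, EIF5 and EIF5B. Those with lower TE were EIF2D, EIF3I, EIF3K, EIF5A and its copy EIF5AL1. For 7 of the higher and 4 of the lower ones the estimate in polysome-associated RNA was larger in size than that in total RNA. For EIF2S3B, EIF3A, EIF4B and EIF3I the estimate in total RNA was the larger one, and none of these was called there. When TE was instead tested by partial variance, with polysome-associated RNA adjusted for total RNA, 5 of the 15 calls remained (EIF2A, EIF2S1, EIF2S2, EIF3E and EIF5B), and none of the 5 members with lower TE was called. With CID661578, 0 members were called higher or lower (background 0.00829% and 0.199%), also with DESeq2. At an unadjusted p below 0.05, 2 members (EIF2A and EIF5) were higher, against 4.92% of all genes, and 0 were lower, against 3.95%. In that comparison edgeR called only 25 genes of the whole table, and the partial variance test called 37. The study used the anota2seq package on these samples and reported many mRNAs with changed translation efficiency shared by both compounds. What makes these yields differ was not tested.

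**Figure D2:**
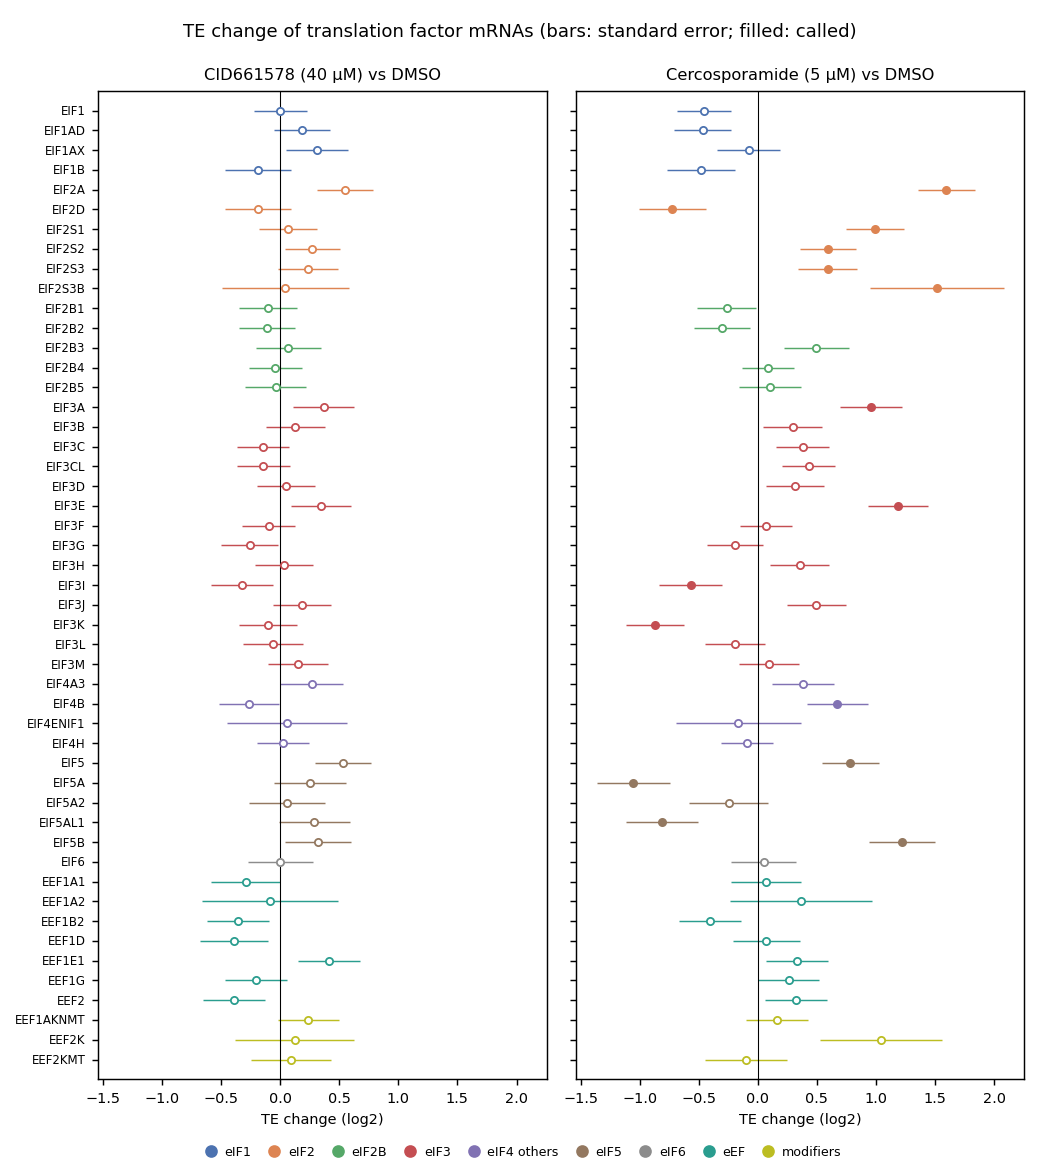
TE change (log2, horizontal axis) of the 49 members with CID661578 (left) and cercosporamide (right), coloured by family. Points are fitted changes over 4 replicates, bars are standard errors and filled points were called at an adjusted p below 0.15. On the right 15 points are filled, from EIF2A at 1.59 to EIF5A at -1.06, and on the left none is.

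Among the eIF2 genes, EIF2A had the largest TE change of all members. EIF2A is a separate initiator tRNA binding protein and no subunit of eIF2. Its total RNA was at 53.0, 55.3, 51.8 and 55.9 CPM with DMSO and at 43.4, 30.1, 77.1 and 64.5 CPM with cercosporamide. Its polysome-associated RNA was at 52.2, 28.5, 34.9 and 39.9 CPM with DMSO and at 106, 67.4, 119 and 157 CPM with cercosporamide. The groups overlapped in total RNA and not in polysome-associated RNA. The TE change was 1.59 ± 0.24, a fold of 3.02 (adjusted p = 0.000197 in edgeR's quasi-likelihood test, higher in 4 of 4 replicates). The same mRNA was at 75.7, 38.7, 55.5 and 68.8 CPM in polysome-associated RNA with CID661578, where its TE change of 0.55 ± 0.24 (95% interval 0.08 to 1.02) had an adjusted p of 0.512 in edgeR's quasi-likelihood test.

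EIF2S1 encodes the alpha subunit of eIF2, the target of the stress kinases. In total RNA it was at 152, 136, 160 and 148 CPM with DMSO and at 137, 91.5, 191 and 188 CPM with cercosporamide. In polysome-associated RNA it was at 159, 80.5, 181 and 152 CPM with DMSO and at 295, 166, 266 and 389 CPM with cercosporamide. Of the 4 cercosporamide libraries, only that of replicate 2 fell within the DMSO range, and replicate 2 was the lowest library with DMSO too. This was a TE change of 0.99 ± 0.25 (adjusted p = 0.00857 in edgeR's quasi-likelihood test, higher in 4 of 4 replicates), and with CID661578 it was 0.06 ± 0.25.

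The beta and gamma subunits had smaller estimates. EIF2S2 had a TE change of 0.59 ± 0.23 and EIF2S3 one of 0.59 ± 0.25 with cercosporamide, and the call for EIF2S3 was made in 4 of 13 alternative fits. The copy EIF2S3B was at 1.56, 2.85, 2.08 and 1.501 CPM in total RNA with DMSO and at 0.644, 0.836, 1.16 and 1.78 CPM with cercosporamide, and at 2.45, 1.97, 3.83 and 3.23 against 5.32, 3.75, 4.08 and 3.97 CPM in polysome-associated RNA. The groups overlapped in both fractions at these low levels. Its TE change was 1.52 ± 0.57, and it may share reads with EIF2S3. EIF2D, which delivers tRNA without GTP, was the single eIF2 member that fell (-0.73 ± 0.28). Without replicate 4 with cercosporamide, which holds the shallow library, EIF2D was no longer called. Its TE fell by 1.87 in that replicate and by 0.39 to 0.46 in the other replicates.

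In eIF2B, 0 of 5 subunits were called with cercosporamide by edgeR or DESeq2, and 0 had an unadjusted p below 0.05 in edgeR. Among all genes 15.8% were called higher and 12.6% lower in edgeR, and a difference between eIF2B and eIF2 was not tested. EIF2B3, with the highest mean level of the 5, was at 167, 69.3, 175 and 141 CPM in polysome-associated RNA with DMSO and at 185, 144, 196 and 318 CPM with cercosporamide, and the groups overlapped. Its TE change was 0.49 ± 0.28 with cercosporamide and 0.07 ± 0.28 with CID661578.

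Within eIF3, 2 subunits rose and 2 fell with cercosporamide, and the other 10 were not called. EIF3E, a subunit with a PCI domain, had the largest change. In polysome-associated RNA it was at 371, 214, 223 and 289 CPM with DMSO and at 763, 672, 897 and 1127 CPM with cercosporamide, without overlap. In total RNA it was at 373, 606, 331 and 295 CPM with DMSO and at 556, 564, 423 and 623 CPM with cercosporamide, and those groups overlapped. The fitted TE change was 1.19 ± 0.25 (adjusted p = 0.00266 in edgeR's quasi-likelihood test, higher in 4 of 4 replicates), and with CID661578 it was 0.35 ± 0.25.

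EIF3A is the largest eIF3 subunit. Its total RNA was at 94.5, 90.5, 134 and 97.9 CPM with DMSO and at 94.1, 86.1, 51.8 and 74.4 CPM with cercosporamide. Its polysome-associated RNA was at 149, 134, 168 and 255 CPM with DMSO and at 292, 175, 251 and 263 CPM with cercosporamide. Both pairs of groups overlapped, with lower values in total and higher values in polysome-associated RNA. The resulting TE change was 0.96 ± 0.26 (adjusted p = 0.0136 in edgeR's quasi-likelihood test), with the highest value in replicate 3 and 0.44 to 0.97 in the other replicates. By partial variance it was 0.51 and not called (adjusted p = 0.229, limma).

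EIF3K moved the other way. It was at 2041, 2117, 2219 and 1753 CPM in polysome-associated RNA with DMSO and at 1222, 1696, 1450 and 1309 CPM with cercosporamide, without overlap. In total RNA it was at 2053, 1866, 1946 and 1762 CPM with DMSO and at 2435, 2173, 3150 and 2063 CPM with cercosporamide, where every cercosporamide library was above every DMSO library. Its fitted TE change was -0.87 ± 0.25 (adjusted p = 0.018 in edgeR's quasi-likelihood test, lower in 4 of 4 replicates) and -0.10 ± 0.25 with CID661578. By partial variance the cercosporamide change was -0.54 and not called (adjusted p = 0.185, limma). EIF3I, a WD-repeat subunit, had a change of -0.57 ± 0.26 with cercosporamide and was called in 6 of 13 alternative fits.

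**Figure D3:**
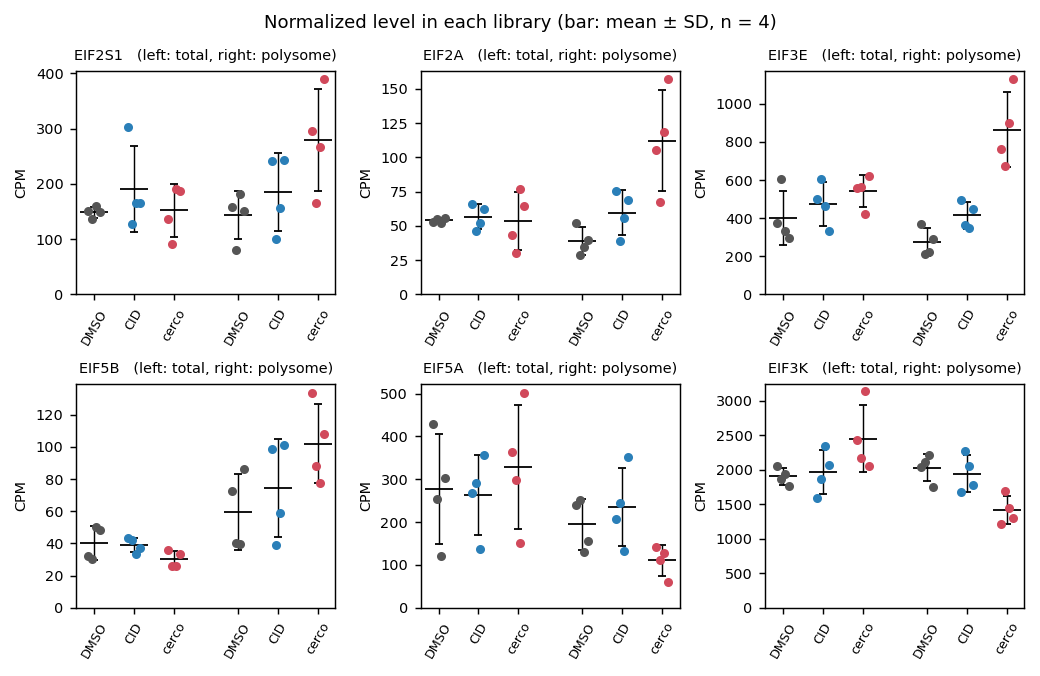
Normalized level (CPM, vertical axis from 0) of EIF2S1, EIF2A, EIF3E, EIF5B, EIF5A and EIF3K in each library, with total RNA to the left and polysome-associated RNA to the right of each panel (CID, CID661578; cerco, cercosporamide). Points are libraries and bars are the mean ± SD of 4. The polysome-associated level with cercosporamide lies above that with DMSO for EIF2A (67.4 to 157 against 28.5 to 52.2 CPM) and EIF3E, and below it for EIF3K (1222 to 1696 against 1753 to 2219 CPM).

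The eIF5 genes encode proteins with separate functions and changed in opposite directions with cercosporamide. EIF5B, the GTPase that joins the subunits, was at 32.3, 30.0, 50.2 and 48.6 CPM in total RNA with DMSO and at 35.9, 25.8, 25.8 and 33.7 CPM with cercosporamide. In polysome-associated RNA it was at 72.8, 40.1, 39.5 and 86.2 CPM with DMSO and at 134, 88.3, 77.7 and 108 CPM with cercosporamide. The groups overlapped in both fractions, but within each replicate the polysome level was higher with cercosporamide. The TE change was 1.22 ± 0.28, a fold of 2.33 (adjusted p = 0.00507 in edgeR's quasi-likelihood test), and with CID661578 it was 0.32 ± 0.28.

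EIF5, the GTPase activator of eIF2, has 3 upstream ATG triplets in its annotated 5′ UTR of 441 bases. It was at 446, 230, 79.9 and 282 CPM in polysome-associated RNA with DMSO, at 671, 323, 166 and 572 CPM with CID661578 and at 447, 238, 120 and 665 CPM with cercosporamide. Replicate 3 was the lowest in every group and the groups overlapped. The TE change was 0.78 ± 0.24 with cercosporamide (adjusted p = 0.0269 in edgeR's quasi-likelihood test) and 0.53 ± 0.24 with CID661578 (adjusted p = 0.531). Without replicate 4 the cercosporamide change was 0.59 with an adjusted p of 0.152 in the same test.

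EIF5A encodes the hypusine-containing factor that helps ribosomes through difficult peptide bonds. In total RNA it was at 430, 253, 121 and 303 CPM with DMSO and at 364, 297, 151 and 500 CPM with cercosporamide. In polysome-associated RNA it was at 239, 251, 131 and 156 CPM with DMSO and at 143, 112, 128 and 60.9 CPM with cercosporamide, where 1 library of each group lay within the range of the other. The TE change was -1.06 ± 0.31 (adjusted p = 0.0221 in edgeR's quasi-likelihood test, lower in 4 of 4 replicates). It was -0.64 without replicate 4 with cercosporamide, which holds the shallow library. By partial variance the change was -0.80 and not called (adjusted p = 0.236, limma). With CID661578 the change was 0.25 ± 0.31 (95% interval -0.35 to 0.85). EIF5AL1 followed with -0.81 ± 0.31, and these 2 genes may share reads.

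Of the other eIF4 members, EIF4B, the RNA-binding stimulator of the eIF4A helicase, was called. It was at 91.2, 60.01, 104 and 113 CPM in polysome-associated RNA with DMSO and at 122, 91.8, 100 and 138 CPM with cercosporamide, and at 57.6, 58.6, 56.5 and 63.4 CPM against 47.8, 34.3, 59.3 and 46.3 CPM in total RNA. The groups overlapped in both fractions. The TE change was 0.67 ± 0.25 (adjusted p = 0.0718 in edgeR's quasi-likelihood test, higher in 3 of 4 replicates), and without replicate 4 with cercosporamide it was not called. EIF4A3, EIF4H and EIF4ENIF1 had changes of 0.38 ± 0.27, -0.09 ± 0.22 and -0.16 ± 0.53, none of them called.

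Of the 7 eEF members, which include the synthetase component EEF1E1, 0 were called with either compound by edgeR or DESeq2 (15.8% of all genes were higher and 12.6% lower with cercosporamide), and 0 had an unadjusted p below 0.05 in edgeR. EEF1A1 was at 6340, 3935, 6648 and 6315 CPM in polysome-associated RNA with DMSO, at 6062, 4104, 5599 and 4970 CPM with CID661578 and at 5547, 6150, 7141 and 8609 CPM with cercosporamide, and the 3 groups overlapped. Its TE change was -0.29 ± 0.29 with CID661578 and 0.07 ± 0.29 with cercosporamide. EEF2 was at 669, 606, 814 and 855 CPM in polysome-associated RNA with DMSO, at 550, 714, 450 and 487 CPM with CID661578 and at 1072, 889, 629 and 701 CPM with cercosporamide. Its TE change was -0.39 ± 0.26 with CID661578 (95% interval -0.90 to 0.12) and 0.32 ± 0.26 with cercosporamide. EEF1B2 and EEF1D, the exchange factor subunits, had TE changes of -0.36 ± 0.26 and -0.39 ± 0.29 with CID661578.

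The remaining members had no TE call. EIF1 was at 243, 304, 443 and 225 CPM in polysome-associated RNA with DMSO and at 167, 173, 322 and 193 CPM with cercosporamide, and the groups overlapped. Its TE change was -0.46 ± 0.23 with cercosporamide, with values from -0.41 to -0.55 in the 4 replicates (adjusted p = 0.182 in edgeR's quasi-likelihood test). DESeq2 called EIF1 (-0.53, adjusted p = 0.064) and EIF1AD (-0.54, adjusted p = 0.117) lower. EIF6 was at 1720, 1582, 1926 and 992 CPM in polysome-associated RNA with DMSO and at 1512, 1978, 2943 and 2564 CPM with cercosporamide, a TE change of 0.05 ± 0.28. EEF1AKNMT was at 59.4, 46.8, 48.3 and 70.5 CPM with DMSO and at 80.7, 63.4, 38.4 and 74.1 CPM with cercosporamide in the same fraction, a TE change of 0.16 ± 0.26. Both pairs of groups overlapped. EEF2K, at 3.54 ± 2.25 CPM in total RNA with cercosporamide, had a change of 1.04 ± 0.52 that was not called (adjusted p = 0.179 in edgeR's quasi-likelihood test), and depth limits the precision of such a level.

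Group medians describe the families side by side. With cercosporamide the median TE change was 0.79 for eIF2, 0.31 for eIF3, -0.25 for eIF5 and 0.26 for eEF, against 0.00 for all genes. The eIF2 medians in replicates 1 to 4 were 0.93, 1.25, 0.45 and 0.37, above 0 in each, and the eIF1 medians of -0.54, -0.32, -0.56 and -0.43 were below 0 in each. The eIF3 medians were 0.33, 0.31, -0.06 and 0.35, the eIF5 medians 0.12, -0.65, 0.04 and -0.89, and the eEF medians -0.27, 0.48, 0.16 and 0.29, so that each of these families had replicates on both sides of 0. The eIF5 median became 0.27 when the copy EIF5AL1 was left out, and the eIF2 median became 0.59 without EIF2S3B.

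With CID661578 the medians were 0.15 for eIF2, -0.02 for eIF3, 0.29 for eIF5 and -0.29 for eEF, and replicate medians lay on both sides of 0 in all 4 families. The estimates of 6 of 7 eEF members were below 0 with CID661578, while 6 of 7 were above 0 with cercosporamide, and none of these was called. For the 10 listed TOP mRNAs the median was -0.23 with CID661578, with estimates below 0 for 8 of 10, and 0.29 with cercosporamide, with estimates above 0 for 9 of 10. Their medians in replicates 1 to 4 were -0.03, 0.20, -0.53 and -0.59 with CID661578 and 0.17, 0.51, 0.09 and 0.31 with cercosporamide. Most of the list are the eEF members just counted, and members read in the same libraries are not replicates. EIF3E and EIF4B were the 2 listed TOP mRNAs whose TE rose with cercosporamide. The 12 members that began with the tract had a median of -0.10 with CID661578 and 0.21 with cercosporamide (4 higher and 2 lower). The 26 with a window but no tract had medians of 0.06 and 0.07 (3 higher and 3 lower with cercosporamide). Of all genes tested, 15.8% were called higher and 12.6% lower with cercosporamide. The 4 higher ones with the tract include EIF2S3 and its copy EIF2S3B, and the 3 lower ones without it include EIF5A and its copy EIF5AL1.

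**Figure D4:**
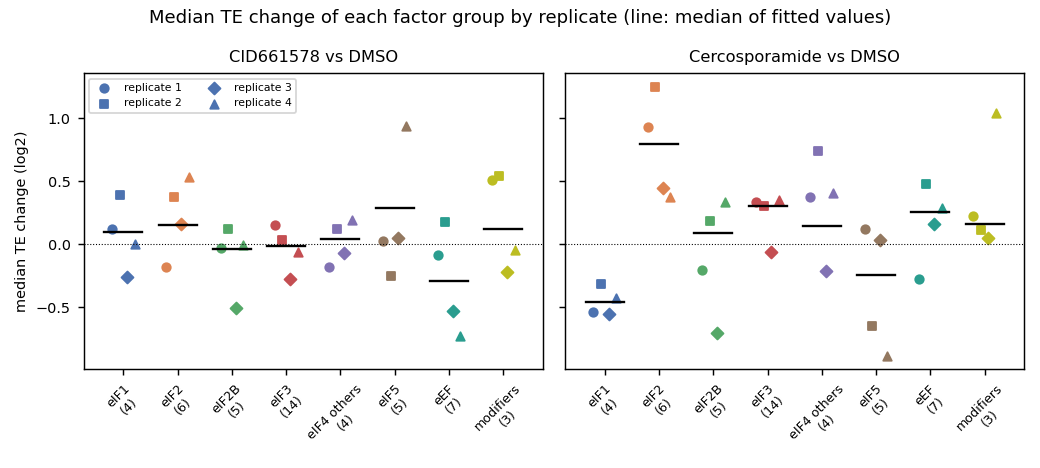
Median TE change (log2, vertical axis) of each factor family in replicates 1 to 4 with CID661578 (left) and cercosporamide (right); numbers in parentheses are members and black lines are medians of the fitted values. With cercosporamide the 4 eIF2 medians lie between 0.37 and 1.25 and the 4 eIF1 medians between -0.56 and -0.32.

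In polysome-associated RNA alone, 12 members rose and 6 fell with cercosporamide (background 17.1% higher and 16% lower), and 4 rose with CID661578 (background 6.34% higher and 3.93% lower). The 4 with CID661578 were EIF2A (0.60 ± 0.18), EIF2S2 (0.66 ± 0.19), EIF3E (0.61 ± 0.19) and EIF5 (0.77 ± 0.20), each higher in 4 of 4 replicates, and the adjusted p for EIF5 was 0.0349 in edgeR's quasi-likelihood test. Without the replicate block the count with CID661578 was 0, and with cercosporamide it was 5 higher and 2 lower. Background in those fits was 0.29% higher with CID661578, and 9.37% higher and 6.58% lower with cercosporamide. EIF2A, EIF2S1 and EIF3E were called with cercosporamide in every one of 11 alternative fits of that fraction. EIF1 (-0.54 ± 0.17) and EIF1B (-0.87 ± 0.22) fell in the polysome-associated fraction with cercosporamide without a TE call, and EEF1E1 (0.68 ± 0.22), EEF1G (0.52 ± 0.19), EIF2B3 (0.59 ± 0.20) and EIF6 (0.49 ± 0.22) rose.

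The difference between the TE changes with 40 µM CID661578 and with 5 µM cercosporamide was tested directly, a contrast in which the DMSO values cancel. The difference was called above 0 for 4 members and below 0 for 8 (background 7.93% and 7.57%). Above 0, with a higher TE with CID661578, were EIF5A (1.31 ± 0.31, adjusted p = 0.0171 in edgeR's quasi-likelihood test), EIF5AL1 (1.10 ± 0.31), EIF3K (0.77 ± 0.25) and EIF1AD (0.65 ± 0.24). Below 0 were EIF2A (-1.05 ± 0.24, adjusted p = 0.0152 in the same test), EIF2S1 (-0.93 ± 0.25), EIF4B (-0.94 ± 0.25), EIF5B (-0.90 ± 0.28), EIF3E (-0.84 ± 0.25), EEF2 (-0.71 ± 0.26), EIF2S3B (-1.47 ± 0.57) and EIF3CL (-0.57 ± 0.22). EIF2A was the one of these 12 that was called in all 13 alternative fits, while EIF3CL was called in 4 and EIF2S3B in 6. EIF3C, with counts close to those of EIF3CL, was not called (-0.53, adjusted p = 0.164 in the same test). For EIF5, whose TE estimates were above 0 with both compounds, the difference was -0.25 ± 0.24 (95% interval -0.72 to 0.21), and for EEF1A1 it was -0.36 ± 0.29 (95% interval -0.93 to 0.22).

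The called members differed in base composition. The 10 with higher TE with cercosporamide had a median GC content of the canonical transcript of 40.7% (range 37.2 to 44.8%), and the 5 with lower TE had one of 52.1% (46.3 to 56.6%), without overlap. The 34 members without a call had a median of 49.8%. The same order held for the whole table, with 40.2% for all genes called higher, 53.0% for all called lower and 47.5% for all genes tested. When the trend on GC content was removed from each library, 13 members were called higher and 7 lower, against 10.8% and 10% of all genes, and 7 of the 15 calls remained: EIF2A (0.99), EIF3A (0.69), EIF4B (0.56) and EIF5B (0.60) above 0, and EIF3K (-0.57), EIF5A (-0.72) and EIF5AL1 (-0.80) below 0. EIF2S1 (0.36, adjusted p = 0.293 in edgeR's quasi-likelihood test), EIF3E (0.52, adjusted p = 0.159) and EIF5 (0.28, adjusted p = 0.456) were no longer called, nor were EIF2S2, EIF2S3, EIF2S3B, EIF2D and EIF3I. Of the 5 eIF2 members with higher TE, EIF2A alone kept its call, and the 3 subunits of eIF2 lost theirs. Calls that appeared with the trend removed included EEF2 (0.68, adjusted p = 0.0373 in the same test) and EEF1G (0.57) among the elongation factors. The part of base composition in these changes was not tested further.

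Other genes of the translation pathway were read from a list of 38, of which 37 were tested. With cercosporamide the TE of 10 rose and that of 2 fell (15.8% and 12.6% of all genes), and with CID661578 0 were called by edgeR, where 4 genes (ABCE1, PAIP2, EIF4E and EIF4G2) had an unadjusted p below 0.05, each with a positive estimate (4.92% of all genes). Of the 4 release and recycling factors, 3 rose: ABCE1, which splits ribosomes after termination (1.55 ± 0.26), and the release factors GSPT2 (0.98 ± 0.30) and GSPT1 (0.69 ± 0.25). Of 8 initiation helpers, the helicases DDX3X (1.22 ± 0.27) and DHX29 (0.97 ± 0.30) and the eIF5 mimic BZW1 (1.02 ± 0.24) rose. Of the 8 genes of the cap-binding complex, its relatives and its repressors that were left out of the members, EIF4E (0.90 ± 0.24), EIF4A2 (0.90 ± 0.24) and EIF4G2 (0.52 ± 0.23) rose. The repressor EIF4EBP1 fell (-0.75 ± 0.28). PPP1R15B, a subunit of an eIF2 phosphatase, rose by 0.67 ± 0.27. Its relative PPP1R15A was the one gene of the list that changed in total RNA with CID661578 (1.23 ± 0.25, adjusted p = 0.0426 in edgeR's quasi-likelihood test). DPH3, which is needed to make the diphthamide of eEF2, had a lower TE with cercosporamide (-1.30 ± 0.28).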

How the data were processed

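The authors lysed PANC-1 cells, took total cytosolic RNA and, from sucrose gradients, RNA with more than 3 ribosomes, and made Smart-seq2 libraries. Per the labels and the methods, reads were aligned to hg38 with HISAT2 after removal of rRNA reads and counted on RefSeq genes with featureCounts at default settings. The values the authors deposited are raw counts for 54583 genes in 24 libraries, without normalization. By these settings reads that overlap several genes are dropped, strand is ignored and a read with several alignments is counted at each.

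Genes with a 0 in any library were removed, counts were scaled by TMM, and edgeR 4.0.16 (quasi-likelihood, R 4.3.3) was fitted to all 12058 remaining genes. The TE model held a term for each replicate of each treatment and, for the polysome fraction, replicate and treatment terms. Single fractions were fitted with treatment and replicate. The thresholds for TE (1.2-fold, adjusted p below 0.15) are those of the study's methods. The 1.2-fold limit was also applied to single fractions, where the study set none, and 95% intervals assume normal errors. The anota2seq package of the study was not used. Changes per replicate were taken from log2 CPM with a prior count of 0.5. Precision follows from the depth, 1592459 to 12184749 reads, and from 6 residual degrees of freedom. In the TE fit edgeR added 18.3 prior degrees of freedom, drawn from the spread of all genes. Reads were amplified without molecular identifiers.

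The replicate number joins libraries because the study's methods treat it as a batch. As a check, deviations from the group mean were correlated across genes between each treated library and its same-numbered DMSO library, and 13 of 16 values of r were above 0.1 (range -0.02 to 0.56). Members and lists were chosen with earlier results of these data known. Values in every library were given for up to 3 members of each family with the lowest adjusted p among those called, or else the member with the highest mean level, and, chosen after their values were seen, for EIF3B, EEF1E1 and EEF2. Transcript lengths and GC content came from GENCODE 44 and 5′ ends from RefSeq GRCh38.p14. Alternatives were DESeq2 1.42.0, its size factors, TMM within each fraction, filterByExpr, no filter, no replicate block, an adjusted p of 0.05, each replicate left out, cercosporamide replicate 4 left out, an analysis of partial variance and removal of the GC trend (GC content known for 96.7% of genes). GC content of the 5′ UTR was known for 79.9% of genes tested, under the 80% set for such a check, which was therefore void.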

Additional observations from a re-analysis of the deposited data

Results flagged for a closer look

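Of 90 sets of 4 libraries examined for the 15 members whose values were given by rule (15 members in 6 groups), 3 held a library far from the other 3, and chance alone would single out about 1 in 20 sets. EIF1 was at 742 CPM in total RNA of replicate 3 with cercosporamide, with the nearest other library at 523 CPM. EIF3A was at 134 CPM in total RNA of replicate 3 with DMSO, against 97.9 CPM in the nearest library. EEF1A1 was at 3935 CPM in polysome-associated RNA of replicate 2 with DMSO, against 6315 CPM. Without replicate 2 the TE change of EEF1A1 with cercosporamide was -0.22.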

How the results depend on the processing

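With cercosporamide, higher TE was called for 6 members without a filter or at an adjusted p of 0.05, and lower TE for 2 at 0.05 and, with partial variance, for 1, EIF1, which was none of the 5 called otherwise. Of all genes, 4.56% were higher without a filter and 11.1% lower with partial variance. Leaving out replicates in turn gave 6 to 11 higher and 3 to 4 lower (8.66 to 13.8% of all genes higher and 6.37 to 13.9% lower). The difference between the compounds was called above 0 for 0 members with partial variance and 2 at 0.05, and below 0 for 4 at 0.05, with 1 to 3 above and 2 to 6 below when a replicate was left out. Of all genes, 5.42% were above 0 with partial variance. With a replicate left out, 1.83 to 7.14% of all genes were above 0 and 1.43 to 7.12% below. Polysome against total RNA with DMSO was called lower for 8 without a filter (11.3% of all genes). TMM within each fraction gave 26 higher and 7 lower (39.2% and 20.4% of all genes). Removing the GC trend called 2 higher in total RNA with cercosporamide, against 4.25% of all genes, and moved the median TE change of eIF1 to -0.62 and of eIF3 to 0.061. In polysome-associated RNA with CID661578, 1 was called higher with the GC trend removed or at 0.05 and 1 lower with DESeq2, with 1 to 3 higher and 0 to 1 lower when a replicate was left out. Of all genes, 1.62% were higher with the GC trend removed and 5.22% lower with DESeq2. With a replicate left out, 2.11 to 4.7% of all genes were higher and 1.2 to 3.94% lower. Polysome calls with cercosporamide were 6 higher at 0.05, 3 lower without cercosporamide replicate 4 (11.7% of all genes) and 7 to 10 higher with each replicate left out (12.6 to 14.7%). Without the replicate block, polysome calls were 0 higher with CID661578 (0.29% of all genes) and 5 higher and 2 lower with cercosporamide (9.37% and 6.58%). TE counts stayed within 1.5 times. The cause of these shifts was not tested.

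Estimates near 0 changed sign. With CID661578 these were EIF1 (-0.0011 with DESeq2, -0.0010 with its size factors, -0.023 without a filter, -0.083 with the GC trend removed), EIF6 (-0.0013 with DESeq2 and with its size factors, -0.023 without a filter), EEF1AKNMT (-0.068 with partial variance) and, with the GC trend removed, EIF2S1 (-0.29), EIF2S3B (-0.18), EIF3E (-0.040) and EIF5B (-0.025). With cercosporamide these were EEF1A1 (-0.00062 with DESeq2, -0.00065 with its size factors, -0.0017 without a filter, -0.082 without cercosporamide replicate 4, -0.26 with the GC trend removed) and EIF6 (-0.020 with DESeq2 and with its size factors, -0.021 without a filter, -0.20 without cercosporamide replicate 4). Leaving out replicates in turn gave, with CID661578, -0.12 to 0.095 for EIF1, -0.090 to 0.22 for EIF2S1, -0.27 to 0.33 for EIF2S3B, -0.18 to 0.21 for EIF2B3 and -0.13 to 0.12 for EIF6, and with cercosporamide -0.22 to 0.32 for EEF1A1 and -0.24 to 0.24 for EIF6. EIF2A and EIF5B kept their TE call with cercosporamide in all 13 alternative fits (adjusted p 2.18e-07 to 0.00736 and 0.00249 to 0.127 in edgeR, DESeq2 or limma). Depth limits the rarest members.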
